A study of Caenorhabditis elegans with 12 samples.

Results

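The genes described here code for the enzymes that take superoxide and hydrogen peroxide apart in Caenorhabditis elegans: 5 superoxide dismutases (sod-1 to sod-5), 3 catalases (ctl-1 to ctl-3) and 2 peroxiredoxins (prdx-2 and prdx-3). They were chosen by gene symbol in the deposited count table, where all 10 were found among 46778 genes. Whole larvae of 3 genotypes were measured: ced-3(n717), mutant in a caspase, pmk-1(km25), mutant in a p38 MAP kinase, and the wild type strain N2 (WT). All larvae hatched without food over 24 h and then ate OP50 bacteria for 18 h at 20 °C. Sampling was timed by the WT worms, nearly all of which were then in the L3 stage, and each mutant was represented by 1 allele. For each genotype there were 2 worm samples, and each gave an mRNA library and a library of ribosome-protected fragments (RPF, the mRNA stretches that a ribosome covers).

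Superoxide dismutases turn superoxide into hydrogen peroxide and oxygen, and catalases and peroxiredoxins then remove the peroxide. SOD-1 is the main cytosolic copper-zinc enzyme, SOD-4 is the extracellular or membrane-bound copper-zinc form, and SOD-2 and SOD-3 are manganese enzymes of the mitochondrial matrix. CTL-2 is the catalase of peroxisomes, PRDX-2 is a cytosolic peroxiredoxin and PRDX-3 is a mitochondrial one. In worms, sod-3 and sod-5 are known as genes that the insulin-regulated factor DAF-16 turns on. PMK-1 is known for immune and stress signalling that includes the factor SKN-1, and CED-3 is the caspase that carries out cell death.

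The mRNA libraries held 15471380 to 17150137 counts and the RPF libraries 6708805 to 10115985. Levels are given as CPM (counts scaled to library size, with TMM factors within each kind of library), where 3 counts amount to 0.177 to 0.203 CPM of mRNA or 0.301 to 0.404 CPM of RPF. No marker of the 6 tissue lists (intestine, hypodermis and seam, body wall muscle, pharynx, neurons, germline) had 0 counts in any group. The mutated gene ced-3 had 92 and 108 counts in ced-3 mRNA, 38 and 39 in pmk-1 mRNA, and 81 and 36 in WT mRNA. The gene pmk-1 had 37.9 and 41.0 CPM in ced-3 mRNA, 35.5 and 35.3 in pmk-1 mRNA and 37.1 and 35.5 in WT mRNA. Its RPF level was 25.2 ± 0.27 CPM in pmk-1 worms and 49.8 ± 3.57 CPM in WT (SD, n = 2 each). Exons of some members overlap a gene on the opposite strand: sod-1 with C15F1.13 by 85 bases, sod-2 with dpt-1 by 21, sod-3 with C08A9.3 by 65 and lido-1 by 24, and ctl-2 with Y54G11A.7 by 65. Counts per gene do not show which part of a gene an allele changes, so the mRNA levels did not check the genotypes.

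The 10 genes fell into abundant and scarce members. In WT mRNA, levels per length of merged exons were 413 ± 41.6 CPM per kb for prdx-2, 298 ± 11.9 for sod-1, 232 ± 4.27 for prdx-3, 116 ± 3.38 for sod-2 and 53.6 ± 2.75 for ctl-2 (SD, n = 2). Far below came sod-4 with 8.46 ± 0.45 CPM per kb, sod-3 with 2.14 ± 0.041 and ctl-3 with 0.46 ± 0.209. Neighbours in this order differed by more than their spread over the WT libraries. The order was the same in ced-3, pmk-1 and WT, in mRNA and in RPF, and also when mRNA was divided by coding length. In RPF, levels per coding kb in WT were 1538 ± 124 CPM for prdx-2, 484 ± 35.5 for prdx-3, 237 ± 10.99 for sod-2, 31.6 ± 6.76 for sod-4 and 8.38 ± 0.505 for sod-3. By level per kb in WT mRNA, prdx-2 stood at place 256 and sod-1 at place 360 of 12941 protein coding genes, and sod-3 at place 10343. Together the 10 genes summed to 824 ± 48.3 CPM in ced-3 mRNA, 893 ± 52.2 CPM in pmk-1 mRNA and 898.5 ± 35.6 CPM in WT mRNA (SD, n = 2 each). In RPF the sums were 1793 ± 34.5 CPM in ced-3, 1941 ± 197 CPM in pmk-1 and 2038 ± 160 CPM in WT worms, and prdx-2 alone held 43.5% to 47.5% of them in the 6 libraries.

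**Figure D1:**
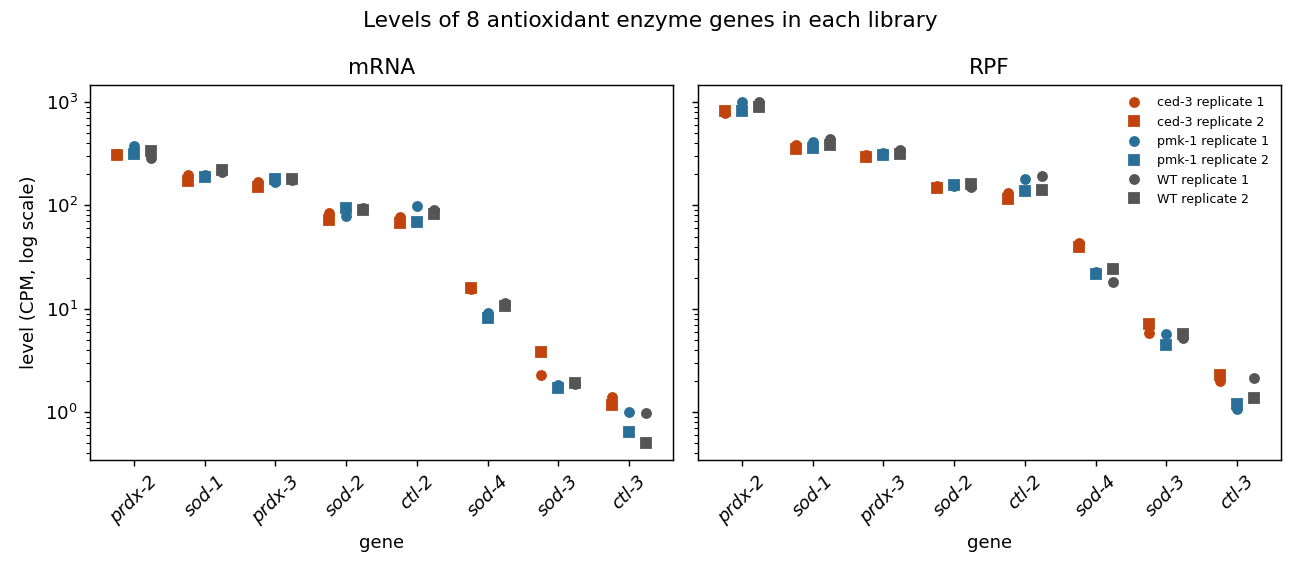
Level (CPM, log axis) of the 8 tested genes in each mRNA library (left) and RPF library (right). Colours give the genotype, circles are replicate 1 and squares replicate 2. The 5 abundant genes lie between 67.3 and 373 CPM in mRNA, whereas sod-4, sod-3 and ctl-3 lie between 0.509 and 15.9 CPM.

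The first question was whether loss of the caspase changes the levels of these enzymes. In ced-3 worms against WT none of the 8 tested members passed in mRNA, by edgeR or by DESeq2, where 1.77% of all 13536 genes were called with edgeR and 9.88% with DESeq2. One member, sod-4, had an unadjusted p under 0.05 with each tool. In RPF again 0 of 8 passed with edgeR (background 0.0554% of 12633 genes), with sod-4 under an unadjusted p of 0.05, and 1 passed with DESeq2, which was sod-4 (background 10.4%). The median log2 fold of the members was -0.085 in mRNA and -0.099 in RPF, beside 0.002 and 0.013 over all genes.

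For the cytosolic genes sod-1 and prdx-2 the highest of the 6 mRNA libraries was 1.29 times the lowest. The dismutase gene sod-1 (WBGene00004930, chromosome II, 6972706 to 6973887, WBcel235) had 197 and 171 CPM in ced-3 mRNA, 197 and 189 in pmk-1 mRNA, and 208 and 220.4 in WT mRNA. All ced-3 and pmk-1 libraries lay below both WT libraries, as 29.7% of all genes did in ced-3 and 23.6% in pmk-1, but the log2 folds of -0.22 ± 0.12 (SE; ced-3 against WT, adjusted p = 0.319) and -0.15 ± 0.12 (pmk-1 against WT, adjusted p = 0.734) did not pass edgeR's test. In RPF sod-1 had 384 and 351 CPM in ced-3, 408 and 357 in pmk-1, and 436 and 387 in WT, with a log2 fold of -0.16 ± 0.16 in ced-3 against WT. For prdx-2 (WBGene00006434, chromosome II, 5378195 to 5379631), the most abundant member, mRNA levels were 311 and 307 CPM in ced-3, 373 and 313 in pmk-1, and 290.2 and 335 in WT. The ced-3 libraries of prdx-2 fell between those of WT, with a log2 fold of -0.02 ± 0.14. Its RPF levels were 790.5 and 816 CPM in ced-3, 989 and 819 in pmk-1, and 999.5 and 892 in WT, so that the ced-3 libraries were the lowest 2 of the 6, by a log2 fold of -0.24 ± 0.17 against WT (adjusted p = 0.457). Of all genes in RPF, 26.6% had both ced-3 libraries below WT and 31.4% below pmk-1.

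The abundant mitochondrial genes were sod-2 and prdx-3, and neither passed in a comparison of genotypes. The manganese dismutase gene sod-2 (WBGene00004931, chromosome I, 8434550 to 8435807) had 85.3 and 72.1 CPM in ced-3 mRNA, 79.4 and 94.5 in pmk-1 mRNA, and 94.8 and 90.9 in WT mRNA. Its ced-3 libraries lay below the WT libraries, as 29.7% of all genes did in mRNA, while pmk-1 and WT overlapped. For sod-2 the fall in ced-3 mRNA, by -0.24 ± 0.14 on the log2 scale, did not pass (edgeR adjusted p = 0.359). In RPF sod-2 had 155 and 146 CPM in ced-3, 153 and 157 in pmk-1, and 152 and 162 in WT, the narrowest range in RPF, and the genotypes overlapped. The peroxiredoxin gene prdx-3 (WBGene00011110, chromosome III, 4407444 to 4408437) had 169 and 151.5 CPM in ced-3 mRNA, 169 and 179 in pmk-1 mRNA, and 176 and 181 in WT mRNA. The highest of its 6 mRNA libraries was 1.19 times the lowest, the narrowest range of the 8 tested members in mRNA, and within RPF the highest was again 1.19 times the lowest. Its RPF levels were 307 and 291 CPM in ced-3, 321 and 304 in pmk-1, and 345 and 311 in WT.

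The peroxisomal catalase gene ctl-2 (WBGene00000831, chromosome II, 14299556 to 14302027) had 130 and 116 CPM in ced-3 RPF, 180.0 and 138 in pmk-1 RPF, and 193 and 142 in WT RPF. Both ced-3 libraries lay below all others, as for 26.6% of all genes against WT and 31.4% against pmk-1. The log2 fold of ctl-2 was -0.44 ± 0.22 against WT (edgeR adjusted p = 0.284) and -0.37 ± 0.22 against pmk-1 (adjusted p = 0.301). With 1 library left out the fold was between -0.65 and -0.19 against WT, nearest to 0 without WT replicate 1, and between -0.53 and -0.16 against pmk-1. In mRNA it had 76.5 and 67.3 CPM in ced-3, 98.8 and 69.3 in pmk-1, and 89.5 and 83.3 in WT, with a log2 fold of -0.27 ± 0.19 in ced-3 against WT. Across the 5 abundant genes, the log2 folds of ced-3 against WT were between -0.27 and -0.02 for mRNA and between -0.44 and -0.064 for RPF. Their 95% intervals lay within -0.73 to 0.32 in mRNA and within -0.97 to 0.27 in RPF, so that a rise in ced-3 of more than 0.32 on the log2 scale was outside the intervals of all 5 in both kinds of library, whereas a fall of up to 0.97 was not.

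**Figure D2:**
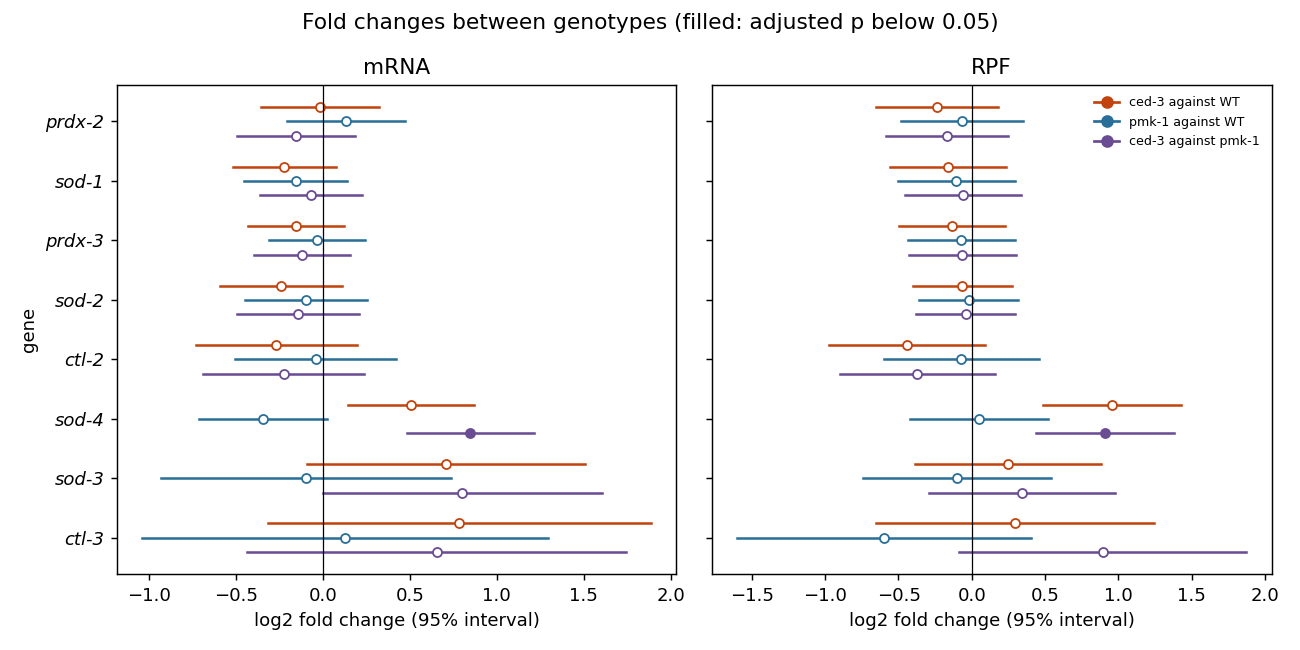
Log2 fold changes with 95% intervals (edgeR) for the 8 tested genes in mRNA (left) and RPF (right), with 3 comparisons of genotypes per gene. Filled points passed an adjusted p of 0.05: sod-4 in ced-3 against pmk-1, by 0.85 in mRNA and 0.91 in RPF.

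Among the members, sod-4 differed most clearly between the genotypes. The extracellular dismutase gene sod-4 (WBGene00004933, chromosome III, 9496884 to 9500375) had 15.5 and 15.9 CPM in ced-3 mRNA, 9.19 and 8.24 in pmk-1 mRNA, and 11.5 and 10.6 in WT mRNA. The 3 genotypes did not overlap, with ced-3 highest and pmk-1 lowest. Of all genes, 30.4% had both ced-3 mRNA libraries above both pmk-1 libraries and 30.1% had them above both WT libraries. Both pmk-1 mRNA libraries lay below WT for 23.6% of all genes. In RPF sod-4 had 43.3 and 39.4 CPM in ced-3, 22.5 and 21.5 in pmk-1, and 18.0 and 24.5 in WT. Both ced-3 libraries stood above all 4 others, whereas pmk-1 lay within the range of WT. In RPF, 31.3% of all genes had both ced-3 libraries above pmk-1 and 29.0% above WT.

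Set directly against pmk-1, sod-4 was higher in ced-3 by 0.85 ± 0.15 on the log2 scale in mRNA (SE, edgeR adjusted p = 0.0331) and by 0.91 ± 0.19 in RPF (adjusted p = 0.0443). It was the only one of 8 tested members past the threshold in either, where 6.72% of all genes in mRNA and 6.05% in RPF were called higher. In both directions together the calls came to 9.21% of genes in mRNA and 8.61% in RPF. DESeq2 gave adjusted p of 0.00286 in mRNA and 0.00746 in RPF, where it called 15.4% and 15.2% of all genes. The log2 folds stayed within 0.77 to 0.93 in mRNA and 0.84 to 0.97 in RPF under every alternative run, but the edgeR call did not hold throughout. In mRNA it was lost when ced-3 replicate 2 (adjusted p = 0.0853), pmk-1 replicate 1 (0.108) or pmk-1 replicate 2 (0.0743) was left out, and in RPF when any 1 of the 4 libraries was (0.0726 to 0.167). Both calls were also lost in a fit of these groups alone (0.0981 in mRNA, 0.104 in RPF).

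Against WT, the sod-4 difference of ced-3 did not pass with edgeR. The log2 folds were 0.51 ± 0.15 in mRNA (adjusted p = 0.12) and 0.96 ± 0.19 in RPF (adjusted p = 0.0656), and DESeq2 gave 0.162 in mRNA and 0.00712 in RPF. Over the alternatives the adjusted p was between 0.118 and 0.496 for mRNA and between 0.00586 and 0.404 for RPF. In pmk-1 against WT the log2 folds were -0.34 ± 0.15 in mRNA (adjusted p = 0.557) and 0.049 ± 0.19 in RPF (adjusted p = 0.966). The comparisons with WT share the WT libraries, and the comparisons of ced-3 share the ced-3 libraries.

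Measured facts that bear on sod-4 concern its neighbour and the make-up of the samples. Its exons overlap those of ctr-9, a gene of the PAF1 complex on the opposite strand, over 175 bases, and whether reads were counted by strand is not given in the sources used here. The level of ctr-9 was 108 and 126 CPM in ced-3 mRNA, 135 and 126 in pmk-1 mRNA, and 124.5 and 125 in WT mRNA. Its log2 fold in ced-3 against pmk-1 was -0.16 in mRNA (edgeR adjusted p = 0.418) and -0.15 in RPF (adjusted p = 0.66). The summed mRNA level of 10 hypodermis and seam markers was 4774 to 5418 CPM in ced-3, 3392 to 3816 in pmk-1 and 3976 to 4007 in WT. In RPF it was 4200.0 to 5841 CPM in ced-3, 2309 to 2946 in pmk-1 and 3187 to 3561 in WT. Against pmk-1, the collagen genes dpy-13 and rol-6 were higher and nhr-23 was lower in ced-3 mRNA. In that comparison 6.72% of all genes were called higher and 9.21% in both directions together. The median log2 fold of the 10 markers in ced-3 against pmk-1 was -0.21 in mRNA and -0.049 in RPF. The 6 pharynx markers summed to 1555 to 1569 CPM in ced-3, 2451 to 2890.0 in pmk-1 and 1784 to 2019 in WT mRNA. Of these, the pharynx myosin genes myo-1 and myo-2 were lower in ced-3 mRNA against pmk-1 (9.21% of all genes were called in either direction). Moulting genes (17 of 18 tested) summed to 2647 to 5118 CPM in ced-3, 1379 to 4406 in pmk-1 and 752 to 825 in WT mRNA. Against pmk-1, 6 of the 17 were higher and 1 was lower in ced-3 mRNA. There 6.72% of all genes were called higher and 9.21% in both directions together. The 11 intestine markers summed to 4235 to 5171 CPM in ced-3, 4924 to 5185 in pmk-1 and 5866 to 6319 in WT mRNA. In RPF these markers summed to 4913 to 5985 CPM in ced-3, 7839 to 7960 in pmk-1 and 9415 to 10560 in WT. In ced-3 against pmk-1 the called intestine markers went both ways. In mRNA ges-1 and lys-1 were higher and ifb-2 was lower. In RPF lys-1 was higher (6.05% of all genes were) and asp-1, ifb-2 and pept-1 were lower (2.56%). Against WT, ifb-2 was lower in ced-3 mRNA (1.77% of all genes were called). The gene lys-1 was lower in pmk-1 mRNA (0.421%) and RPF (0.182%). The part of the overlap with ctr-9, of larval timing and of tissue make-up in the sod-4 difference was not tested. In whole worms fewer cells of a type cannot be told apart from less RNA per cell.

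**Figure D3:**
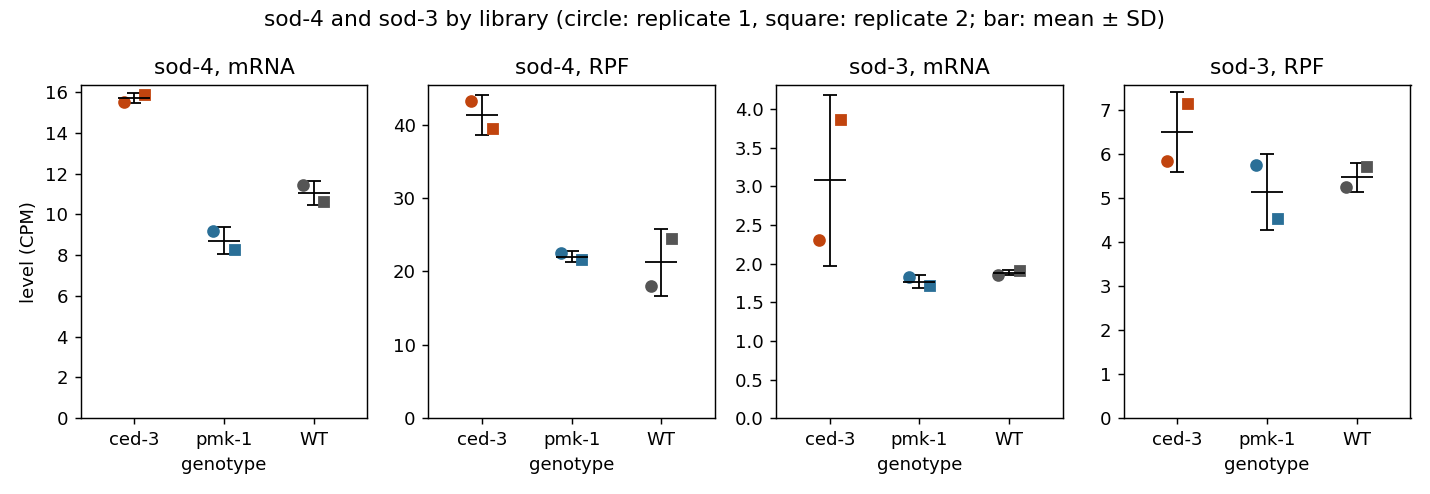
Level (CPM) of sod-4 and sod-3 in each mRNA and RPF library, with the mean and SD of the 2 libraries of a genotype as a bar and whiskers. For sod-4 both ced-3 libraries lie above the pmk-1 and WT libraries in mRNA and RPF, whereas for sod-3 the mRNA of ced-3 replicate 2 (3.87 CPM) stands apart from ced-3 replicate 1 (2.30 CPM).

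The second mitochondrial manganese dismutase, sod-3 (WBGene00004932, chromosome X, 17092753 to 17094306), was scarce, with 27 to 65 counts per mRNA library. It had 2.30 and 3.87 CPM in ced-3 mRNA, 1.82 and 1.71 in pmk-1 mRNA, and 1.86 and 1.91 in WT mRNA. Both ced-3 libraries were above the others, as for 30.1% of all genes against WT and 30.4% against pmk-1. Both pmk-1 libraries were just below WT, as for 23.6% of all genes. The log2 fold was 0.71 ± 0.33 in ced-3 against WT (adjusted p = 0.254) and 0.80 ± 0.33 in ced-3 against pmk-1 (adjusted p = 0.168), so neither passed edgeR's test. Without ced-3 replicate 2 these folds were 0.30 against WT and 0.39 against pmk-1. In RPF its levels were 5.86 and 7.15 CPM in ced-3, 5.74 and 4.52 in pmk-1, and 5.25 and 5.71 in WT. The ced-3 libraries were again the highest 2, as for 29.0% of all genes against WT and 31.3% against pmk-1. The log2 fold of sod-3 against WT was 0.25 ± 0.26, with an interval of -0.39 to 0.885.

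For the other cytosolic copper-zinc dismutase, sod-5 (WBGene00007036, chromosome II, 4417633 to 4419130), there were 4 and 5 counts in ced-3 mRNA, 0 and 1 in pmk-1 mRNA, and 0 and 1 in WT mRNA. These counts were too low for the main test. The ratio of the summed counts, scaled for library size, was 8.49 for ced-3 against WT with a 95% exact interval of 1.18 to 372, which covers counting error only. When no filter on low counts was applied, edgeR gave an adjusted p of 0.351 against WT and 0.285 against pmk-1. In RPF, sod-5 had 0 and 1 counts in ced-3, 0 and 1 in pmk-1, and 0 in each WT library, so no difference in RPF was detectable at this depth.

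The 3 catalase genes lie next to each other on the minus strand of chromosome II, with 1540 bases between ctl-2 and ctl-1 and 1537 between ctl-1 and ctl-3. Their sequences are known to be much alike, and how reads that match more than 1 of them were counted is not given in the sources used here. Counts fell almost wholly on ctl-2, which had 1132 to 1462 per mRNA library. The cytosolic catalase gene ctl-1 (WBGene00000830, 14303568 to 14306260) had 4 and 8 counts in ced-3 mRNA, 8 and 3 in pmk-1 mRNA, and 2 and 9 in WT mRNA. Over the 6 RPF libraries it had a single count, in WT replicate 2, against 34 counts over the mRNA libraries. The third catalase gene, ctl-3 (WBGene00013220, 14307798 to 14310779), had 24 and 20 counts in ced-3 mRNA, 15 and 11 in pmk-1 mRNA, and 16 and 8 in WT mRNA. Its log2 fold was 0.79 ± 0.45 in ced-3 against WT (adjusted p = 0.341) and 0.66 ± 0.44 in ced-3 against pmk-1 (adjusted p = 0.372), which did not pass. In RPF it had 15 and 21 counts in ced-3, 10 and 12 in pmk-1, and 16 and 13 in WT. The ced-3 libraries lay above pmk-1, as for 31.3% of all genes, but overlapped WT.

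The next question was whether loss of the p38 kinase changes these enzymes. In pmk-1 worms against WT none of the 8 tested members passed in mRNA or in RPF with edgeR or DESeq2, and none had an unadjusted p under 0.05, where edgeR called 0.421% of all genes in mRNA and 0.182% in RPF, and DESeq2 2.79% and 2.22%. The median log2 fold of the members was -0.068 in mRNA and -0.071 in RPF. For the 5 abundant genes the log2 folds against WT were between -0.15 and 0.14 for mRNA and between -0.10 and -0.022 for RPF. Their 95% intervals together spanned -0.50 to 0.48 in mRNA and -0.60 to 0.46 in RPF.

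Footprints were then compared with mRNA. In WT worms 7 of the 8 tested members had more RPF relative to mRNA than the scaling of all genes sets, where 13.6% of 13698 genes were called higher and 19.6% lower. The median log2 fold of RPF against mRNA was 0.74 for the members and 0.006 for all genes. For prdx-2 the ratio of RPF to mRNA level (with all 12 libraries scaled together) was 2.31 and 2.38 in ced-3, 2.29 and 2.25 in pmk-1, and 2.99 and 2.28 in WT worm samples. Its log2 fold in WT was 1.38 ± 0.15 (adjusted p = 0.000249), and its ratio lay at the 96.5th percentile of 12797 protein coding genes. For sod-3 the ratio was 2.31 and 1.65 in ced-3, 2.72 and 2.28 in pmk-1, and 2.45 and 2.57 in WT worm samples, with a log2 fold of 1.33 ± 0.29 in WT (adjusted p = 0.00761). The folds of sod-4, ctl-2, sod-1, prdx-3 and sod-2 were 0.73 ± 0.16, 0.74 ± 0.21, 0.73 ± 0.13, 0.67 ± 0.11 and 0.55 ± 0.13, with edgeR adjusted p of 0.00221 to 0.0247. The fold of ctl-3, 0.99 ± 0.43, did not pass (adjusted p = 0.105).

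These calls rest on both WT worm samples. Without WT replicate 1, edgeR no longer called sod-1, sod-2, sod-3, ctl-2 and prdx-3, and without WT replicate 2 it no longer called sod-2, sod-3, sod-4 and ctl-2. Over all genes the number called was 4552 with both samples and 1532 to 1656 with 1 of them, and prdx-2 was called in both cases. With mRNA and RPF of the same worms paired, 7177 genes and the same 7 members were called, where 25.7% of all genes were called higher. The ratio sets libraries of different kinds side by side, and the part of the library kind in it was not tested.

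**Figure D4:**
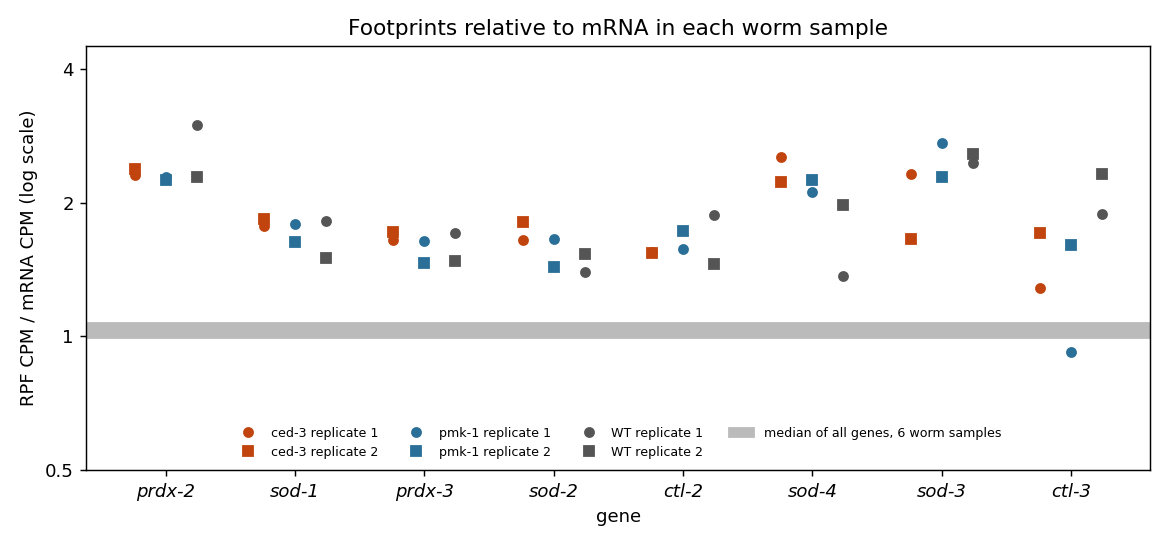
Ratio of RPF level to mRNA level (CPM over CPM, log axis, all 12 libraries scaled together) for the 8 tested genes in the 6 worm samples. Colours give the genotype, circles are replicate 1 and squares replicate 2, and the grey band spans the median over all genes in the worm samples, 0.994 to 1.07. Every point lies above the band other than ctl-3 in pmk-1 replicate 1 (0.923).

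Whether either mutation changes footprints beyond mRNA (translation efficiency, TE) was tested as the interaction of genotype and kind of library. No member passed in ced-3 against WT, pmk-1 against WT or ced-3 against pmk-1, with edgeR or DESeq2 or with the worm samples paired, and edgeR called 0 of 13698 genes in each comparison (0% background; 221, 172 and 251 genes had an unadjusted p under 0.05, DESeq2 called 1, 5 and 0, and the paired fit 3, 2 and 4). As shares, DESeq2 called 0.0073%, 0.0365% and 0% of genes and the paired fit 0.0219%, 0.0146% and 0.0292%. In the paired edgeR fit 679, 460 and 796 genes had an unadjusted p under 0.05. The member with the smallest unadjusted p was sod-4 in ced-3 against WT, with a TE log2 fold of 0.51 ± 0.23 (unadjusted p = 0.0489, adjusted p = 1, and 0.972 to 1 over the alternatives). Its ratio of RPF to mRNA was 2.53 and 2.22 in ced-3, 2.12 and 2.25 in pmk-1, and 1.37 and 1.97 in WT worm samples. The WT samples differed most, and without WT replicate 1 the TE fold of sod-4 was 0.28. Over the 5 abundant genes the TE folds ran from -0.16 to 0.24 in ced-3 against WT and from -0.20 to 0.071 in pmk-1 against WT.

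Other genes of peroxide metabolism gave the surroundings of these enzymes. Of 8 genes of the thioredoxin system, which reduces peroxiredoxins, 6 were tested, and 1 was called higher in ced-3 against pmk-1. In that comparison 6.72% of all genes were called higher in mRNA and 6.05% in RPF. This gene, trx-3, a thioredoxin of the intestine, had 35.0 ± 22.6 CPM in ced-3 and 6.82 ± 0.0931 in pmk-1 mRNA (log2 fold 2.36 ± 0.48, edgeR adjusted p = 0.0438). Its 2 ced-3 libraries were far apart, and the call was lost without pmk-1 replicate 1 (adjusted p = 0.161) or pmk-1 replicate 2 (0.11). Of the glutathione peroxidases with the genes of glutathione supply, 17 of 18 were tested in mRNA and none passed in any comparison of genotypes by edgeR. The member with the smallest adjusted p was gpx-5, with 250.4 ± 11.7 CPM in ced-3 and 72.6 ± 50.7 in pmk-1 RPF (adjusted p = 0.0939). Of the peroxide producers and haem peroxidases, which make or spend peroxide, 4 of 7 tested genes were higher in ced-3 mRNA against pmk-1 (6.72% of all genes were) and the same 4 in ced-3 RPF (6.05% of all genes), and none was lower. The dual oxidase maturation factor doxa-1 had 54.1 ± 4.12 CPM in ced-3 and 21.4 ± 8.6 in pmk-1 mRNA (log2 fold 1.34 ± 0.28, adjusted p = 0.0442), and its partner tetraspanin tsp-15 had 26.5 ± 0.184 and 15.2 ± 3.51 CPM in ced-3 and pmk-1 mRNA (0.80 ± 0.18, adjusted p = 0.0486). The haem peroxidases skpo-1 and skpo-2 were higher in ced-3 mRNA by 3.50 ± 0.73 and 3.69 ± 0.63 on the log2 scale. For skpo-1 the levels were 3.62 ± 1.61 CPM in ced-3 and 0.307 ± 0.148 in pmk-1 mRNA, the latter near the limit of 3 counts. For skpo-2 they were 80.3 ± 55.45 and 6.17 ± 3.18 CPM, with the ced-3 libraries far apart. All 4 calls were lost in mRNA without ced-3 replicate 2 (adjusted p of 0.0538 to 0.142) and without pmk-1 replicate 1 (0.0822 to 0.169). In mRNA doxa-1 and tsp-15 were also lost without ced-3 replicate 1 (0.073 and 0.0768), and skpo-1 and skpo-2 without pmk-1 replicate 2 (0.0931 and 0.0525). With 1 library left out the mRNA fold of skpo-2 was as low as 2.73, without ced-3 replicate 2. In RPF all 4 were lost without ced-3 replicate 2 (0.0511 to 0.0947) and without pmk-1 replicate 1 (0.136 to 0.149), and doxa-1 and tsp-15 also without pmk-1 replicate 2 (0.051 and 0.0588). The median log2 fold of this list in ced-3 against pmk-1 mRNA was 1.34, beside -0.003 over all genes. Against WT none of the 7 was called in ced-3, in mRNA or RPF (1.77% and 0.0554% of all genes were). None was called in pmk-1 against WT either (0.421% and 0.182%). The median log2 fold of the list against WT in mRNA was 0.70 in ced-3 and -0.64 in pmk-1. The part of larval timing in these differences was not tested.

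Of 14 known DAF-16 targets other than sod-3 and sod-5, 9 were tested. In ced-3 against WT mRNA, where 1.4% of all genes rose, 3 of the 9 rose and none fell. The metabolic gene icl-1, of the glyoxylate cycle, had 414 ± 29.3 CPM in ced-3 and 193 ± 24.5 in WT (edgeR adjusted p = 0.0418). For dod-3 the levels were 3.91 ± 0.0223 in ced-3 and 0.375 ± 0.171 in WT (3.35 ± 0.37, adjusted p = 0.039). The lysozyme lys-7 rose by 1.89 ± 0.21. In ced-3 against WT RPF none of the 9 was called (0.0554% of all genes were). There edgeR gave adjusted p of 0.0584 for dod-3, 0.0626 for lys-7 and 0.0656 for icl-1. In ced-3 against pmk-1 mRNA, where 6.72% of all genes were higher, 5 of the 9 were higher and none lower. These included the metallothionein mtl-1, with 2.61 ± 0.517 CPM in ced-3 and 0.531 ± 0.0819 in pmk-1 (2.27 ± 0.39, edgeR adjusted p = 0.0327). In pmk-1 against WT mRNA none of the 9 was called (0.421% of all genes were), and the median log2 fold of the list was -0.60. The mtl-1 call was lost without ced-3 replicate 2 (log2 fold 2.06), pmk-1 replicate 1 (2.13) or pmk-1 replicate 2 (2.44). Without pmk-1 replicate 1 the calls of dod-3 (log2 fold 3.03) and icl-1 (1.37) against pmk-1 were lost as well. The rises of icl-1, dod-3 and lys-7 against WT were not called when WT replicate 1, WT replicate 2 (adjusted p of 0.325 to 0.395) or ced-3 replicate 2 (0.0561 to 0.0615) was left out. Of 10 genes of metal supply and storage 9 were tested, and mtl-1 was again the only one called between genotypes. It was called higher in ced-3 against pmk-1, in mRNA (6.72% of all genes were) and in RPF (6.05%). Of 11 SKN-1 targets only gst-13, a glutathione S-transferase, passed: it fell in pmk-1, to 28.7 ± 1.39 CPM against 127 ± 19.5 in WT mRNA (log2 fold -2.15 ± 0.17, adjusted p = 0.0106; 0.392% of all genes fell). That call was lost without pmk-1 replicate 1 (adjusted p = 0.0563), WT replicate 1 (0.124) or WT replicate 2 (0.0915). Of 20 genes of peroxisome assembly and beta oxidation none passed in mRNA, where the median log2 fold of ced-3 against WT was -0.45 beside 0.002 over all genes. In RPF 3 of the 20 were lower in ced-3 when set against pmk-1 (2.56% of all genes were), namely the peroxisomal transporter genes pmp-1 and pmp-2 and the acyl-CoA oxidase gene acox-1.1. Levels of pmp-2 were 77.6 ± 11.1 CPM in ced-3 and 139 ± 8.71 in pmk-1 RPF (-0.84 ± 0.17, adjusted p = 0.039), those of pmp-1 53.8 ± 0.96 and 95.9 ± 4.11 CPM in ced-3 and pmk-1 RPF (adjusted p = 0.0429), and those of acox-1.1 92.3 ± 26.2 and 207 ± 41.3 CPM (adjusted p = 0.046). The 3 calls were lost without ced-3 replicate 2, pmk-1 replicate 1 or pmk-1 replicate 2 (0.0635 to 0.196), and that of pmp-1 also without ced-3 replicate 1 (0.061). Among 23 regulators of stress genes, none passed in mRNA and only pmk-1 itself passed in RPF, with more in ced-3 than pmk-1 worms (6.05% of all genes were higher). The log2 fold was 0.85 ± 0.15 (edgeR adjusted p = 0.0353) and 0.75 to 0.94 over the alternatives, but the call did not hold in all of them. In pmk-1 against WT RPF the fold of pmk-1 was -0.98 ± 0.15 and did not pass (edgeR adjusted p = 0.136).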

How the data were processed

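Gene counts of 6 mRNA and 6 RPF libraries were deposited by the authors as whole-number counts, not normalized. Per the submitters' processing notes, Bowtie2, STAR and HTSeq were used with the build WBcel235; their versions, roles and strand setting are not given in the sources used here. Of the 46778 gene IDs, 46603 matched the WBcel235 annotation, which gave positions and lengths.

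The genes and gene lists were chosen with earlier results of these data known. Other genes of a list are named where they passed in a comparison of genotypes, at most 4 per list by adjusted p; where none passed, the one with the smallest adjusted p is named. Departing from this rule, tissue marker and moulting lists are given mainly as sums and counts. Their called genes are named only for hypodermis, pharynx and intestine, after their values were seen.

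Counts were tested with edgeR 4.0.16 in R 4.3.3 (TMM scaling, filterByExpr at min.count 10 and min.total.count 15, robust quasi-likelihood fit, Benjamini-Hochberg adjustment over all genes, threshold 0.05). One fit per kind of library held all 3 genotypes. A fit of all 12 libraries gave RPF against mRNA and TE. It did not pair the mRNA and RPF libraries of the same worms, and a paired fit was an alternative. Steps were tested on simulated data. Errors of folds are SE, and 95% intervals come from the fit. DESeq2 1.42.0, other scaling and filters, leaving out libraries and replicate blocks were alternatives. Exact intervals of count ratios and the limit of 3 counts cover counting error only.

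The labels do not say that replicates came from separate cultures, so p-values measure only the spread between these samples. Both libraries of a worm sample come from the same worms, per the labels; their deviations from the group mean correlated across genes by 0.727 (ced-3 worms), 0.777 (pmk-1 worms) and 0.229 (WT worms).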

Additional observations from a re-analysis of the deposited data

Results flagged for a closer look

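In mRNA, sod-4 lay above both WT libraries in both ced-3 libraries, as 30.1% of all genes did. It lay below them in both pmk-1 libraries, as 23.6% of all genes did. Its log2 folds against WT were 0.51 in ced-3 and -0.34 in pmk-1. The direct edgeR test of ced-3 against pmk-1 passed (log2 fold 0.85, adjusted p = 0.0331). For sod-3 mRNA both ced-3 libraries lay above WT (as for 30.1% of all genes) and both pmk-1 libraries below WT (23.6%). The log2 folds of sod-3 against WT were 0.71 in ced-3 and -0.095 in pmk-1. Its pmk-1 libraries held 27 and 29 counts, against 30 in each WT library (log2 fold -0.095 ± 0.34, adjusted p = 0.953), and without ced-3 replicate 2 the ced-3 fold was 0.30. The direct edgeR test of ced-3 against pmk-1 did not pass (log2 fold 0.80, adjusted p = 0.168).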

How the results depend on the processing

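With 2 libraries per genotype, counts of called genes moved widely, and the cause was not tested. In mRNA, ced-3 against WT gave 1337 calls with DESeq2, 403 without the robust fit, 827 without a filter and 0 to 1479 with 1 library left out. For pmk-1 against WT in mRNA the counts were 377 with DESeq2, 221 without a filter and 2 to 388 with 1 library left out. For ced-3 against pmk-1 in mRNA they were 2079 with DESeq2, 0 in a fit of these groups alone and 64 to 1821 with 1 library left out. In RPF, ced-3 against WT gave 1314 calls with DESeq2, 198 with the groups alone, 327 without the robust fit, 1012 without a filter and 0 to 1249 with 1 library left out. For pmk-1 against WT in RPF they were 281, 47, 212 without a filter and 0 to 205. For ced-3 against pmk-1 in RPF they were 1916, 0, 1713 without a filter and 0 to 1548. For RPF against mRNA in WT, leaving out 1 worm sample gave 1532 to 1656 calls. For TE, DESeq2 gave 1 call in ced-3 and 5 in pmk-1 against WT, no filter gave 2 in pmk-1 against WT, and leaving out 1 worm sample gave 0 to 1 in pmk-1 against WT and in ced-3 against pmk-1.

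Replicate numbers were not shown to pair genotypes: deviations of same-numbered libraries correlated by -0.162 to 0.091. With the number as a replicate block, calls in mRNA were 0 for ced-3 against WT, 27 for pmk-1 against WT and 564 for ced-3 against pmk-1, and in RPF 0, 0 and 496. Under this block sod-4 in ced-3 against pmk-1 had adjusted p of 0.053 in mRNA and 0.0694 in RPF. Pairing mRNA and RPF of the same worms as a block gave 7177 calls for RPF against mRNA in WT, and 3, 2 and 4 for TE in ced-3 against WT, pmk-1 against WT and ced-3 against pmk-1; no call of a member changed.

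For TE, changes of sign were looked for in sod-4 only. In mRNA, in RPF and in RPF against mRNA, only leaving out a library turned the sign of a member's fold, in members not called. Log2 folds then ran, in mRNA, from -0.11 to 0.09 for prdx-2 in ced-3 against WT, from -0.46 to 0.05 for ctl-2 and -0.18 to 0.04 for sod-1 in ced-3 against pmk-1, and, in pmk-1 against WT, from -0.32 to 0.19 for ctl-2, -0.26 to 0.69 for ctl-3, -0.08 to 0.01 for prdx-3 and -0.23 to 0.02 for sod-2. In RPF they ran from -0.01 to 0.64 for ctl-3 in ced-3 against WT, from -0.13 to 0.05 for sod-1 in ced-3 against pmk-1, and, in pmk-1 against WT, from -0.29 to 0.17 for ctl-2, -0.21 to 0.05 for prdx-2, -0.16 to 0.01 for prdx-3, -0.07 to 0.01 for sod-2, -0.28 to 0.05 for sod-3 and -0.15 to 0.28 for sod-4. Depth limited sod-5, ctl-1 and ctl-3, which had at most 24 counts per mRNA library.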
